A study of Oncorhynchus mykiss with 12 samples.

Results

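Small RNA of rainbow trout (Oncorhynchus mykiss) liver was compared between a control group and a group held for 1 month in moderate hypoxia. The data are 6 small RNA libraries, 3 control and 3 hypoxia. All rows of the small RNA table with a mean of at least 1 TPM over the 6 libraries were taken, which gave 510 of 1413 rows. The TPM of a row is its count relative to all small RNA counts of the library, without correction for length. The 510 rows were 286 known miRNAs of 540 and 224 predicted miRNAs of 873. The lowest row inside the limit had 1.00108 TPM on average and the highest row outside it 0.999283 TPM, and both were predicted rows.

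Both groups were wild-type liver tissue, flash-frozen, with total RNA extracted in Trizol, per the labels. Dissolved oxygen was 4.5 ± 0.1 mg/L in the hypoxia group, and the sources used here give no value for the controls. RNA-seq libraries of the same groups, 3 and 3, were used for genes of miRNA processing and for genes that carry miRNAs in their introns. The 12 h group of the study was not analysed here. No label ties a replicate to its own fish. The p-values therefore cover the spread among these libraries, part of which may be technical.

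A miRNA is cut from a hairpin transcript first in the nucleus and then, after export, by Dicer in the cytoplasm. Of the short duplex that results, 1 strand is loaded into an Argonaute protein and the other is mostly degraded. The loaded strand finds its target mRNAs mainly through the seed, bases 2 to 8, and lowers their stability and translation. In vertebrate liver miR-122 is by far the most abundant miRNA, and in mammals miR-210 is the miRNA most widely induced by the hypoxia-inducible factor. The table marks each known row with a family number and a suffix x, y or z. The suffixes are not defined in the sources used here. Rows x and y of a number are taken below as the 2 strands of a hairpin, and 33 of the 68 z rows had the seed of the x or y row of their number.

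The sequences on which the results turn are shown as the authors' table lists them, as DNA letters, with bases 2 to 8 in capitals. The first set holds the row that passed the test and the rows of miR-210, the hypoxia miRNA of mammals.
miR-4454-z: aTCCGGGTcacggcacca
miR-210-x: aGCCACTGactaacgtacattg
miR-210-y: cTGTGCGTgtgacagcggcta
miR-210-z: cTGTGCGTgtgacagcggct
The z row of miR-210 is the y row without its last base, so the y and z rows may share reads and are not separate observations.

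The second set holds miRNAs whose 3 hypoxia libraries all lay above the 3 controls. It is shown because several share bases.
miR-101-y: tACAGTACtatgataactgaat
miR-101-z: tACAGTACtatgataactgaagt
miR-144-y: cTACAGTAtagatgatgtact
miR-199-x: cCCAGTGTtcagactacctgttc
miR-199-y: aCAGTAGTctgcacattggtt
miR-148-y: tCAGTGCAttacagaactttga
miR-152-y: tCAGTGCAtaacagaactttga
miR-141-y: tAACACTGtctggtaacgatg
miR-200-y: tAACACTGtctggtaacgatgt
miR-29-y: tAGCACCAtttgaaatcggtta
Rows miR-148-y and miR-152-y had the same seed and differed at 1 base (T10A, counted from the first base). Rows miR-200-y and miR-141-y were identical over the 21 bases of the shorter, so reads may be divided between them.

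The third set holds the 3 known rows lower in hypoxia without overlap, at a mean of at least 10 TPM and an unadjusted p under 0.05, the most abundant miRNA of the liver, and miR-2188, which the study text names together with sod1.
miR-122-x: tGGAGTGTgacaatggtgttt
let-7-x: tGAGGTAGtagattgaatagtt
miR-128-x: cGGGGCCGggatgctgtctgaga
miR-456-y: cAGGCTGGttagatggttgtct
miR-2188-x: aAGGTCCAacctcacatgtcct
miR-2188-y: gCTGTGTGaggtcggacctatc

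Small RNA counts summed to 8822671 to 13614506 per library. Control replicate 3 stood apart from the other 5 libraries. On the first principal component, which held 48.8% of the variance, it lay at 16.2 and the others at -5.22 to -1.09. It had a count in 846 rows against 1096 to 1163 elsewhere, and miR-122 took 57.7% of its counts against 44.4 to 48.0%. Results that rest on it are given below with and without it. Each known family and suffix had 1 row, so grouping by family and arm joined only predicted rows of the same sequence and equal counts, and left 435 features.

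Of the 435 features 1 passed an adjusted p of 0.05 in edgeR's quasi-likelihood test, or 0.23%. By row it was 1 of 510, or 0.196%, and by seed 1 of 354 sums, or 0.282%. At an unadjusted p under 0.05 there were 20 features higher in hypoxia and 20 lower, 4.6% each way and 9.2% together. By row 45 reached it, or 8.82%, and by seed 34 sums, or 9.6%. The 3 hypoxia libraries lay wholly above the 3 controls in 50 features, or 11.5%, and wholly below them in 27, or 6.21%. These shares are the background for the counts that follow. Overlap was judged on TPM, which scales by total counts, and the fold changes and p-values used TMM scaling. With total counts as the only scaling the median log2 fold change over all features was 0.12, against -0.01 in the main test. Counts of features without overlap may therefore lean toward higher. The authors' deposited table lists 67 rows with an unadjusted p under 0.05 and 0 rows with an adjusted p under 0.05. The plot of change against level shows the features by arm.

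**Figure D1:**
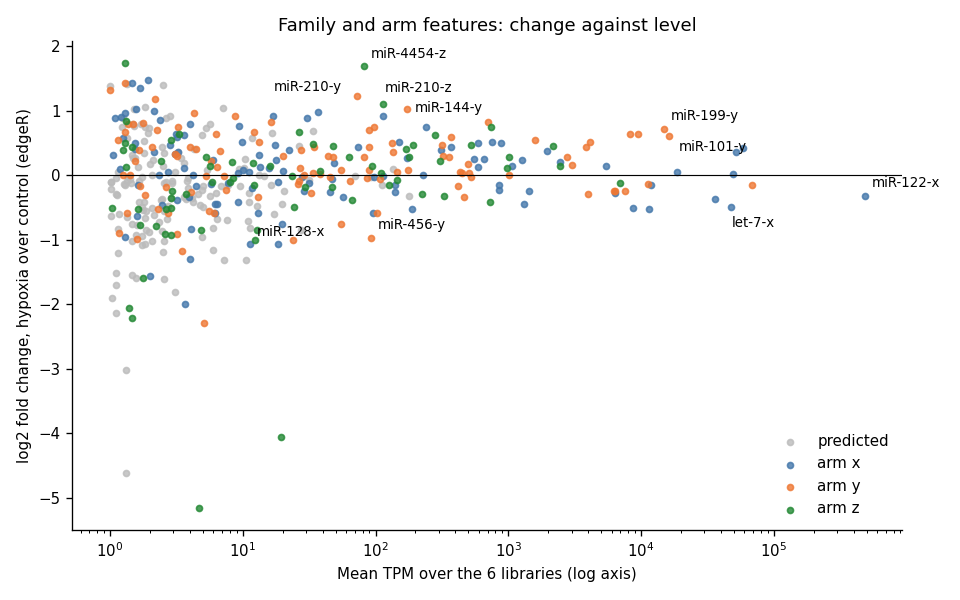
Log2 fold change of hypoxia over control (edgeR) against the mean TPM of the 6 libraries on a log axis, 1 point for each of the 435 features, coloured by arm suffix. Of the labelled points miR-4454-z is highest at 1.69, and miR-122-x, the most abundant row, lies at -0.32.

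The feature that passed was miR-4454-z, a row of 18 bases that ends in the letters CCA. It had 38.4, 45.9 and 25.7 TPM in the controls and 116, 147 and 121 TPM in hypoxia. Every hypoxia library was above every control, with no overlap. The row rose by 1.69 on the log2 scale (SE 0.23), from 36.7 ± 10.2 to 128 ± 16.6 TPM (SD, n = 3 libraries per group, edgeR adjusted p = 0.0295). The call was lost with total counts as the only scaling (edgeR adjusted p = 0.106), with limma on log2(TPM + 1) (0.134) and in each of the 6 edgeR fits without 1 library (adjusted p 0.0732 to 0.486), at a log2 fold change of 1.49 to 1.80. DESeq2 gave an adjusted p of 1.004e-08. The authors' deposited table lists it at an adjusted p of 0.0697.

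A mature tRNA carries CCA as its last bases, added by an enzyme after transcription. Of the 435 features 13 were 18 bases long and ended in CCA, a group formed after its values were seen. Their last bases are shown in capitals for 5 of them.
miR-4454-z: atccgggtcacggcaCCA
miR-2478-z: atcccacttctgacaCCA
miR-1260-z: atcccaccgctgtcaCCA
miR-7977-z: ttcccggccaatgcaCCA
miR-7550-z: atccggctcgaaggaCCA
The most abundant of them, miR-2478-z, had 720, 909 and 784 TPM in the controls and 566, 699 and 722 TPM in hypoxia, so the groups overlapped. Its log2 fold change was -0.41 (SE 0.17, edgeR adjusted p = 0.502). The other 11 ranged from -0.14 to 0.45. As a group the 13 features had a median of 0.15, against -0.01 over all features. All rows of this length and ending were also summed, with those under 1 TPM included and repeated rows taken once. They held 0.130 ± 0.0290% of the control and 0.132 ± 0.0143% of the hypoxia counts. Of the 13 features 9 were above 0. Those higher without overlap were miR-4454-z and miR-7550-z (0.45, SE 0.25, edgeR adjusted p = 0.514), where 11.5% of all features were higher without overlap. Rows miR-7550-z and miR-2779-z list the same sequence. None of the other 12 rows differed by as much as miR-4454-z. Whether these rows are miRNAs or pieces of tRNA was not tested.

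The hypoxia-linked list held miR-210, miR-107, miR-2188, and miR-462 and miR-731, which are made from a shared cluster in zebrafish. Of its 12 features 0 passed, 6 were above 0, and the median log2 fold change was -0.02 against -0.01 over all features. Within it miR-210-y and miR-210-z were higher and miR-462-x was lower in hypoxia without overlap, none of them past the adjusted p.

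In mammals miR-210 acts on mitochondrial and iron-sulfur cluster genes under low oxygen. Its y row had 47.6, 46.2 and 29.6 TPM in the controls and 98.3, 130 and 83.5 TPM in hypoxia, with no overlap, a log2 fold change of 1.23 (SE 0.26) and an edgeR adjusted p of 0.265. The z row had 69.5, 93.9 and 42.0 TPM against 167, 178 and 127 TPM, at 1.11 (SE 0.27, edgeR adjusted p = 0.325). Both rows were higher in 3 of 3 hypoxia libraries, but they may share reads and do not count as separate results. Summed by seed the y and z rows gave 1.18 (SE 0.23), again without an adjusted p under 0.05 (edgeR, 0.141). The other strand, miR-210-x, had 149, 85.9 and 114 TPM against 173, 251 and 129 TPM, and its groups overlapped (0.51, SE 0.32). DESeq2's Wald test, run as an alternative, did call miR-210-y (adjusted p = 0.00217) and miR-210-z (0.0340).

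Row miR-462-x had 1524, 1267 and 1518 TPM in the controls and 1025, 1259 and 1232 TPM in hypoxia. The lowest control lay just above the highest hypoxia library. Its log2 fold change was -0.44 (SE 0.20, edgeR adjusted p = 0.514), or -0.30 without control replicate 3, and that of its cluster partner miR-731-x was -0.52 (SE 0.25) with overlapping groups.

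The strands of miR-2188 lay on opposite sides of 0. Row miR-2188-y had 68.3, 44.9 and 83.7 TPM in the controls and 42.3, 60.1 and 29.7 TPM in hypoxia. Row miR-2188-x had 136, 61.9 and 27.8 TPM against 151, 237 and 69.9 TPM. The groups of both rows overlapped, and the x row was widely spread within each group. The log2 fold changes were -0.75 (SE 0.38, edgeR adjusted p = 0.514) and 0.92 (SE 0.57, edgeR adjusted p = 0.557). Without control replicate 3 they were -0.41 and 0.56, and over the 6 fits without 1 library the x row ranged from 0.37 to 1.60. The transcript of sod1, a superoxide dismutase that the study text names with miR-2188-y, was at 125 ± 11.9 FPKM in the controls and 120 ± 14.4 FPKM in hypoxia (SD, n = 3 libraries per group, edgeR adjusted p = 0.697).

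**Figure D2:**
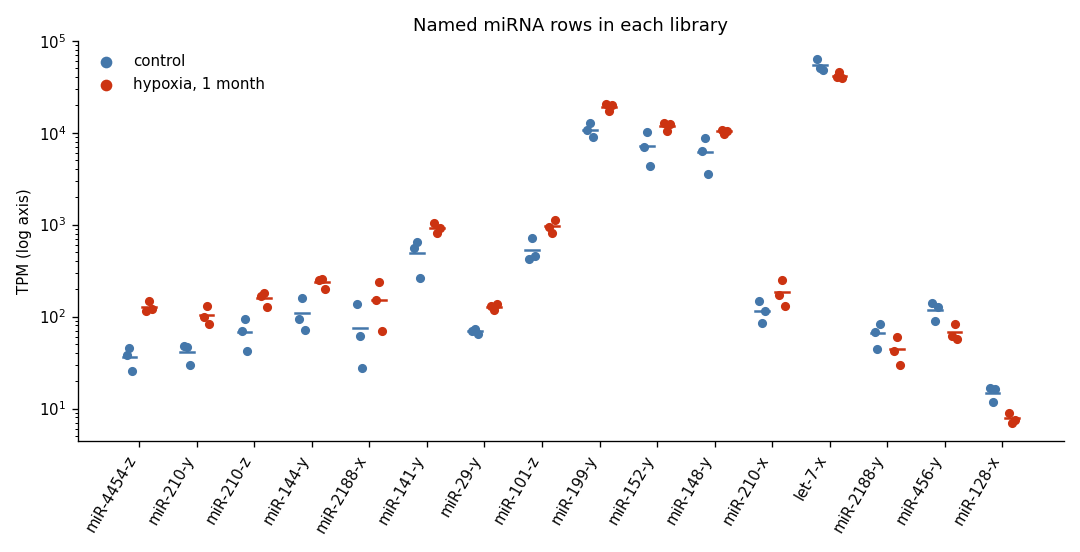
TPM on a log axis in each of the 6 libraries for the largest differences and for all rows of miR-210 and miR-2188, ordered by log2 fold change, with the group mean as a line. Control and hypoxia points are apart in miR-4454-z, miR-210-y and miR-210-z, and mixed in miR-210-x and both rows of miR-2188.

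Among known rows with a mean of at least 10 TPM, 18 were higher and 3 lower in hypoxia with an unadjusted p under 0.05 and no overlap of the groups. Of these 21 rows, miR-4454-z alone passed the adjusted p. The others are given by their values. The counts of 18 and 3 leave out predicted rows. At an unadjusted p under 0.05 alone, 20 of the 286 known features were higher and 8 lower. Of the 149 predicted features 0 were higher and 12 lower, and of all 435 features 20 were higher and 20 lower.

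The family with the largest share of the counts in every library was miR-122, a hepatocyte miRNA of lipid metabolism. It held 47.6%, 48.0% and 57.7% of the counts in the controls and 44.4%, 45.0% and 47.3% in hypoxia. The lowest control was just above the highest hypoxia library. The mean went from 51.1 ± 5.73% to 45.6 ± 1.51% (exact two-sided permutation test, p = 0.1, the smallest that 3 against 3 libraries can give). The difference was -5.55 percentage points with all libraries and -2.25 without control replicate 3. Row miR-122-x had a log2 fold change of -0.32 (SE 0.20, edgeR adjusted p = 0.557), or -0.11 without that library.

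The miR-199 family, which in mammals is made mainly by stellate and other mesenchymal cells, had the second largest share in the hypoxia libraries and stood below miR-22 in the controls. It held 6.52%, 6.08% and 4.98% in the controls and 9.42%, 8.43% and 8.72% in hypoxia, with no overlap (exact permutation test, p = 0.1). Of the counts outside miR-122 it held 11.7 to 12.4% in the controls and 15.3 to 16.9% in hypoxia. Without control replicate 3 the difference in its share of all counts was 2.56 against 2.999 percentage points.

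Both strands of miR-199 were abundant. Row miR-199-y had 10677, 12685 and 8891 TPM in the controls and 20513, 17008 and 19907 TPM in hypoxia. Its log2 fold change was 0.72 (SE 0.16, edgeR adjusted p = 0.306), and DESeq2 called it (adjusted p = 0.0466). Row miR-199-x had 54837, 48452 and 41136 TPM against 74332, 67903 and 67882 TPM, at 0.42 (SE 0.16, edgeR adjusted p = 0.465). In both rows every hypoxia library was above every control. The third row, miR-199-z, overlapped at -0.01.

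The list of stellate and smooth muscle miRNAs held miR-143, miR-145 and miR-214 besides miR-199. Of its 10 features 0 passed, 7 were above 0 and the median was 0.17. The summed level of the list was 58171 to 79570 TPM in the controls and 97537 to 106955 TPM in hypoxia. Most of that sum was miR-199, whose x row alone had 41136 to 54837 TPM and 67882 to 74332 TPM. Outside miR-199 its members overlapped between the groups: miR-143-y was at -0.13, miR-145-y at 0.03 and miR-214-y at 0.08. A change in the number of cells of a type and a change in RNA per cell cannot be told apart in whole tissue.

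The liver list had 16 features, which include miR-122-x and miR-122-y. Of these 0 passed, 10 were above 0, 7 were higher without overlap and 2 lower, at a median of 0.29. Over all 286 known features 167 were above 0, 42 were higher without overlap and 10 lower, at a median of 0.09. The family of miR-101, which in mammals targets the chromatin enzyme EZH2, was higher in all 3 rows. Row miR-101-y had 9398, 17202 and 10163 TPM in the controls and 20057, 17647 and 22770 TPM in hypoxia. Control replicate 2 came close to the lowest hypoxia library, with no overlap. The log2 fold change was 0.61 (SE 0.22, edgeR adjusted p = 0.465), and it was 0.75 (SE 0.22) for miR-101-z and 0.51 (SE 0.18) for miR-101-x.

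Rows miR-148-y and miR-152-y, which share the seed of a family that in mammals targets DNA methyltransferases, kept close to each other. The first had 6257, 8856 and 3589 TPM in the controls and 10727, 9684 and 10510 TPM in hypoxia. The second had 7028, 10188 and 4296 TPM against 12618, 10510 and 12490 TPM. Both had a log2 fold change of 0.64 (SE 0.24), with control replicate 3 lowest in both. Without it the values were 0.43 and 0.45.

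The miR-29 family, known in mammals for its collagen targets, had its largest difference in miR-29-y. This row had 69.6, 72.4 and 65.4 TPM in the controls and 129, 117 and 136 TPM in hypoxia. Its replicates were close together in both groups. The log2 fold change was 0.75 (SE 0.20, edgeR adjusted p = 0.411) and DESeq2 called it (adjusted p = 0.0366).

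The red cell list held miR-144 and miR-451, which are made from a shared cluster. Fish red cells keep a nucleus and circulate through the liver. Row miR-144-y had 94.9, 159 and 71.7 TPM in the controls and 252, 255 and 201 TPM in hypoxia, with no overlap. Its log2 fold change was 1.03 (SE 0.26, edgeR adjusted p = 0.325), and DESeq2 called it (adjusted p = 0.0466). The other strand, miR-144-x, had 10.1, 12.2 and 48.1 TPM against at most 17.6 TPM in hypoxia and overlapped, at -1.07 (SE 0.65), with its highest value in control replicate 3. Row miR-451-x had 230, 142 and 137 TPM against 318, 431 and 191 TPM and overlapped, at 0.76 (SE 0.33). Of the 4 rows of the list 0 passed and 3 were above 0. Their summed level was 268 to 350 TPM in the controls and 420 to 729 TPM in hypoxia, and the median log2 fold change was 0.79. Other miRNAs linked to red cells, such as miR-486, were not in the list. The authors' deposited table gives miR-486-x a log2 fold change of -0.58. In the RNA-seq libraries 13 of 17 loci whose description begins with hemoglobin fell and 0 rose, at a median of -0.88, where 3.83% of all genes rose and 3.39% fell. What the amount of blood contributed was not tested.

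The epithelial list holds the miR-200 family, which in mammals keeps the epithelial state through ZEB transcription factors. Row miR-141-y had 561, 653 and 261 TPM in the controls and 1042, 806 and 915 TPM in hypoxia, at 0.83 (SE 0.28, edgeR adjusted p = 0.465). Row miR-200-y had 2722, 4095 and 2614 TPM against 4648, 4358 and 4840 TPM, at 0.45 (SE 0.18). Neither overlapped, and the rows may share reads. Without control replicate 3 miR-141-y was at 0.58. Rows miR-200-x and miR-429-y were at -0.19 and -0.33 with overlapping groups. Of the 9 features of the epithelial list 0 passed and 7 were above 0, at a median of 0.42, with a summed level of 3198 to 5650 TPM in the controls and 6039 to 6566 TPM in hypoxia.

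A look at the sequences after the values were known showed that miR-101-y, miR-101-z, miR-144-y and miR-199-y share the run ACAGTA within their first 8 bases. They are 4 of the 435 features, or 0.92%, and no other feature held the run there. Rows miR-101-y and miR-101-z differed at 1 base over their shared length (T22G), so they are nearly the same sequence. All 4 were higher in hypoxia without overlap, at 0.61 to 1.03, where 11.5% of all features were higher without overlap. As the group was found in these values, this is a description and no test was made.

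Rows lower in hypoxia by the same criteria were let-7-x, miR-456-y and miR-128-x. Row let-7-x, of a family that in many animals restrains growth, had 63609, 50597 and 47528 TPM in the controls and 40459, 45172 and 39745 TPM in hypoxia, at -0.50 (SE 0.17, edgeR adjusted p = 0.465). Row miR-456-y had 139, 90.1 and 126 TPM against 61.3, 83.2 and 57.7 TPM, at -0.97 (SE 0.28, edgeR adjusted p = 0.442). Row miR-128-x had 16.8, 11.6 and 16.2 TPM against 9.04, 6.95 and 7.51 TPM, at -1.07 (SE 0.34, edgeR adjusted p = 0.465). None of the 3 overlapped. In the miR-128 hairpin the strand of high level, miR-128-y, overlapped at -0.25, so the lower row was its rare strand.

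Some rows of low level had larger negative values that came from control replicate 3. Row miR-5119-z had 105 TPM there, at most 4.31 TPM in the other controls and at most 5.32 TPM in hypoxia. Rows miR-5108-z and miR-1-y, a muscle miRNA, had 26.6 and 22.3 TPM in that library. In the other 5 libraries they had at most 0.702 and 3.92 TPM.

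The remaining lists had 0 features past the adjusted p. The leukocyte list had a median of 0.02 over 8 features and a summed level of 9100 to 15176 TPM in the controls and 10669 to 14167 TPM in hypoxia. The endothelial list had a median of 0.01 over 2 features, which were the strands of miR-126. Row miR-126-y was at -0.24 (SE 0.19) with overlapping groups, or -0.37 without control replicate 3. The other strand, miR-126-x, was above 0 and higher in hypoxia without overlap. Skeletal and heart muscle rows summed to 43.7 to 53.2 TPM and 45.1 to 67.6 TPM, and pancreatic rows to 97.3 to 128 TPM and 122.6 to 157 TPM. The pancreatic list had a median of 0.91 over 3 features, of which 2 were above 0. Its most abundant row, miR-375-y, had a mean of 108 TPM and was at -0.06 (SE 0.21) with overlapping groups. The neural list had a median of 0.36 over 6 features. Its summed level was 57.0 to 76.6 TPM in the controls and 47.2, 51.0 and 179 TPM in hypoxia. Only hypoxia replicate 3 lay above the controls, and the other hypoxia libraries lay below them. The growth clusters of miR-17 and miR-106 had a median of 0.07 over 17 features, and the lipid and insulin-linked list had 0.08 over 17. Fibrosis-linked miR-21-x was at -0.51 (SE 0.25) and the growth-restraining miR-26-x at -0.52 (SE 0.25), both with overlapping groups, and without control replicate 3 they were at -0.34 and -0.32. No row of miR-430, a miRNA of the fish embryo, was among the features.

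**Figure D3:**
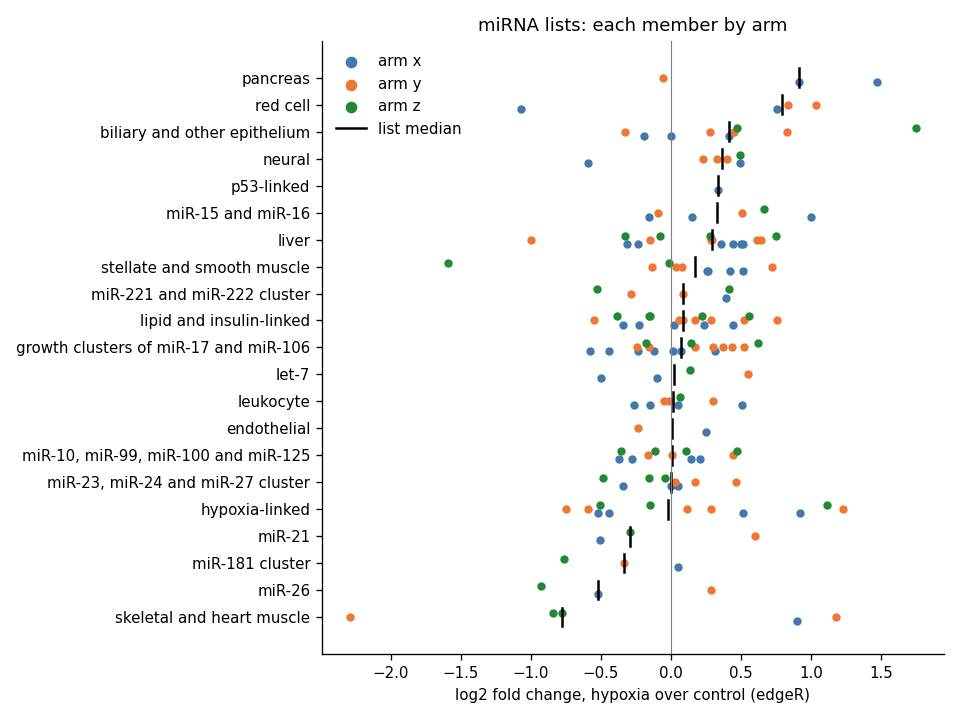
Log2 fold change of hypoxia over control (edgeR) for each member of the miRNA lists, 1 point per feature, coloured by arm, with the list median as a bar. The highest medians are those of the pancreas list, 0.91 on 3 features, and the red cell list, 0.79 on 4 features. The most abundant pancreas member, miR-375-y, lies at -0.06. The liver median lies at 0.29, and the muscle median at -0.78 rests on 5 features.

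The features were also counted by arm. Of 106 y features 21 were higher without overlap and 4 lower, at a median log2 fold change of 0.15. Of 112 x features 12 were higher and 5 lower, at 0.09, and of 68 z features 9 were higher and 1 lower, at 0.01. Of 149 predicted features 8 were higher and 17 lower, at -0.16. These counts are set against 11.5% and 6.21% over all features. With control replicate 3 left out, 26 y features were higher and 9 lower, 17 x features higher and 15 lower, 10 z features higher and 2 lower, and 13 predicted features higher and 35 lower. Over all features that setting gave 66 higher, or 15.2%, and 61 lower, or 14%. The difference between the arms was not tested.

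The share of all counts on the y arm was 16.1%, 18.02% and 14.3% in the controls and 19.1%, 18.5% and 19.5% in hypoxia. The x arm held 81.9%, 80.1% and 84.0% against 78.8%, 79.2% and 78.3%. Neither arm overlapped between the groups (exact permutation tests, p = 0.1 each). Since miR-122-x is on the x arm, the shares were also taken of the counts outside miR-122. The y arm then held 30.4 to 34.1% in the controls and 33.2 to 36.2% in hypoxia, and the groups overlapped. Shannon diversity of the counts was 2.93 to 3.40 bits in the controls and 3.47 to 3.57 bits in hypoxia (exact permutation test, p = 0.1), with the lowest value in control replicate 3. The difference was 0.289 bits with all libraries and 0.131 bits without that replicate.

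**Figure D4:**
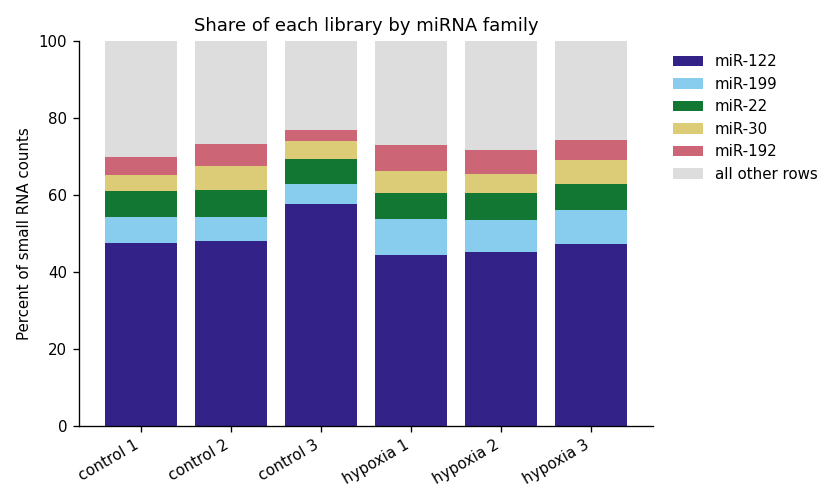
Percent of the small RNA counts of each library held by the 5 families of highest level and by all other rows. The bar of miR-122 is tallest in control replicate 3 at 57.7%, and the band of miR-199 is wider in the 3 hypoxia libraries (8.43 to 9.42%) than in the controls (4.98 to 6.52%).

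The ratio of the x to the y row of a family number hardly depends on how libraries are scaled, so it was tested on its own. Row names carry a number without a letter, so a row may join several hairpins of that number. A change in the mix of such hairpins was not told apart from a change between strands. Both rows reached the limit in 67 families. In limma on the log2 ratio of TPM + 1, 0 of 67 passed the adjusted p, and 7 had an unadjusted p under 0.05, or 10.4%. The ratio was higher without overlap in 5 families, or 7.46%, and lower in 9, or 13.4%. The share of the rarer strand was higher in hypoxia in 35 families and lower in 32, so there was no common direction toward or away from the rare strand.

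In let-7 both rows contributed to the ratio. Beside the lower let-7-x, let-7-y had 991, 1547 and 1134 TPM in the controls and 2096, 1652 and 2072 TPM in hypoxia. The log2 ratio of x to y was 6.003, 5.03 and 5.39 in the controls and 4.27, 4.77 and 4.26 in hypoxia. It was lower in every hypoxia library, by 1.04 on average (SE 0.33, limma adjusted p = 0.247). Without control replicate 3 the difference was -1.08 (limma adjusted p = 0.0167).

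Other families of small p had the same adjusted p of 0.247 in limma. The log2 ratio of miR-454 was 0.593, 1.14 and 0.935 in the controls and 2.19, 1.41 and 1.96 in hypoxia, a difference of 0.96 (SE 0.31). That of miR-100 was 10.6, 10.4 and 10.2 against 9.49, 9.84 and 9.46, a difference of -0.80 (SE 0.27). In miR-2188 the ratio was 0.980, 0.456 and -1.56 against 1.81, 1.96 and 1.21, a difference of 1.70 (SE 0.57). Control replicate 3 held the lowest value of miR-2188, and without it the difference was 0.94 (limma adjusted p = 0.0364). The ratio of miR-722 differed by 1.09 (SE 0.39). Leaving out control replicate 3 gave 7 families past the adjusted p in limma, namely let-7, miR-454, miR-2188, miR-100, miR-7, miR-10545 and miR-33, the last 3 named after their values were seen. With all libraries and group as the only term, and with any other single library left out, 0 families passed. With replicate number added as a term, miR-2188 and miR-144 passed on all libraries (limma adjusted p = 0.00158 each). The numbers were not taken to pair the libraries. Of the 7 families, all but miR-2188 were called only when control replicate 3 was left out.

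**Figure D5:**
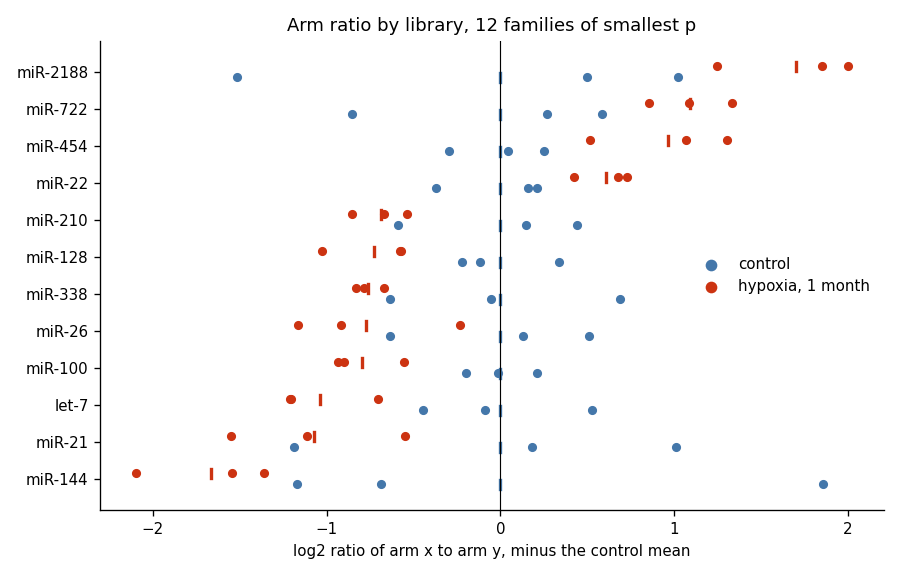
Log2 ratio of arm x to arm y in each library, minus the control mean of the family, for the 12 families of smallest p. In let-7, miR-100, miR-128 and miR-144 the hypoxia points lie to the left of the control points and in miR-454, miR-722 and miR-2188 to the right, and the control points of miR-144 and miR-2188 are spread by 1 library.

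Genes that make, load and remove miRNAs were read from the RNA-seq libraries. Of 71 tested genes of the list 2 rose and 3 fell in edgeR, where 3.83% of all tested genes rose and 3.39% fell. Exportin-5, which carries hairpins out of the nucleus, had 1.45, 1.13 and 0.906 FPKM in the controls and 2.19, 2.16 and 2.57 FPKM in hypoxia. This gene, XPO5, rose by 0.97 on the log2 scale (SE 0.17, edgeR adjusted p = 0.0101), and kept its call in 6 of 6 fits without 1 library. The nuclear exonuclease Xrn2 rose by 0.81 (SE 0.17, edgeR adjusted p = 0.0214) and kept its call in 2 of 6, while a second Xrn2 locus was at 0.33 and did not pass.

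The transcript of tent2, a poly(A) polymerase that in mammals adds a base to miR-122 and steadies it, had 8.22, 6.52 and 7.34 FPKM in the controls and 4.49, 4.06 and 4.79 FPKM in hypoxia. It fell by 0.75 (SE 0.14, edgeR adjusted p = 0.0128) and kept its call in 4 of 6 fits. Its groups did not overlap. The Argonaute gene ago3b fell by 0.84 (SE 0.23, edgeR adjusted p = 0.0492), from 0.950 ± 0.183 to 0.543 ± 0.0360 FPKM, and kept its call in 1 of 6. A more abundant locus, AGO3, at 1.98 FPKM over the 6 libraries, was at -0.18 and did not pass. The tested loci of ago2 and ago4 lay at -0.09 to 0.08, and none passed. The cochaperone fkbp5 fell by 0.73 (SE 0.20, edgeR adjusted p = 0.0478) with groups that overlapped, since hypoxia replicate 3 reached 5.43 FPKM, and hypoxia replicates 1 and 2 had 2.80 and 2.22 FPKM. It kept its call in 2 of 6 fits, and a more abundant locus, FKBP5, at 16.2 FPKM over the 6 libraries, was at 0.17 and did not pass. The member of highest level, the chaperone hsp90ab1, was at -0.12, both copies of the nuclease snd1 were at -0.04 and 0.12, and the most abundant copy of the export GTPase ran was at 0.14, and none of them passed.

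Of 48 tested genes of the host list 5 rose and 2 fell, where 3.83% of all tested genes rose and 3.39% fell. The helicase subunit mcm7, which in vertebrates carries miR-25, miR-93 and miR-106 in an intron, had 6.01, 2.63 and 1.69 FPKM in the controls and 10.4, 9.11 and 17.3 FPKM in hypoxia. It rose by 1.83 (SE 0.37, edgeR adjusted p = 0.0173) and kept its call in 4 of 6 fits without 1 library. Of the 7 rows of its miRNAs 3 were above 0, and the highest, miR-25-y, was at -0.16 (SE 0.24). The value of miR-25-y was smaller than its SE, so its sign is not settled. The autophagy gene vmp1, beside which miR-21 lies in mammals, rose by 1.27 (SE 0.21, edgeR adjusted p = 0.00882) at 1 of 4 tested loci and kept its call in 6 of 6, while miR-21-x was at -0.51.

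Host srebf1, a regulator of fat synthesis, rose by 0.88 (SE 0.18) and 0.91 (SE 0.19) at 2 loci, each called in 1 of 6 fits without 1 library. The tested srebf2 loci, of the same gene family, were at 0.21 and 0.18 with overlapping groups and did not pass. Row miR-33-x, which in mammals lies in an intron of that gene family, was at 0.24 (SE 0.35). The cytoskeletal gene TLN2 rose by 0.83 (SE 0.23, edgeR adjusted p = 0.049995) at 1 of 2 tested loci, beside miR-190-x at 0.76 (SE 0.33). The called TLN2 locus kept its call in 1 of 6 fits without 1 library. Its mean was 0.504 FPKM, just above the limit of 0.5 FPKM for testing. The kinase AKT2 fell at 2 of its 4 tested loci, by 0.53 (SE 0.14) and 0.56 (SE 0.15), and each kept its call in 1 of 6 fits. The other 2 loci were at -0.33 and -0.28 with overlapping groups. Both falls of the host list were AKT2 loci, and no miRNA row of the features was paired with AKT2. The host of highest level, rcl1, which in mammals carries a copy of miR-101, was at 201 FPKM in the controls and 156 FPKM in hypoxia (-0.39, edgeR adjusted p = 0.211), while all 3 rows of miR-101 were above 0. Which copy of a host carries which miRNA in the trout genome was not analysed here.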

How the data were processed

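Counts and TPM per small RNA row, and counts and FPKM per gene, were deposited by the authors and used as deposited. The deposited TPM has no length term, judged from its values, and lists a count of 0 at 0.01. Some reads are counted in more than 1 row, since TPM denominators lie slightly below the count sums. The authors' log2 fold changes and p-values come from a test not given in the sources used here, as are the annotation and build. The submitters' processing notes list Bowtie2 2.2.8 and TopHat2 2.1.1 with no role.

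Groups and replicate numbers came from the labels. Rows that reached a mean TPM of 1 were tested in edgeR 4.0.16 (R 4.3.3) with TMM scaling, group as the only term, a two-sided quasi-likelihood test and Benjamini-Hochberg adjustment over all features. The SE was taken as the size of the log2 fold change over the root of edgeR's F. Arm ratios were tested in limma 3.58.1 with a pseudocount of 1 TPM. RNA-seq genes that reached a mean FPKM of 0.5 were tested together (19365 genes). DESeq2 1.42.0 and other settings were alternatives. Scripts were tested on simulated counts.

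Named rows were miR-2188, miR-210, miR-122, the 10 of highest level, those past the adjusted p, the 10 largest rises and falls with a mean of at least 10 TPM, an unadjusted p under 0.05 and no overlap, and the highest of each list. Gene and arm ratio names were those past the adjusted p, with the highest genes and the 5 ratios of smallest p. Members and lists were chosen with earlier results of these data known. The deposited table is the source of all sequences.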

Additional observations from a re-analysis of the deposited data

How the results depend on the processing

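Libraries held 8822671 to 13614506 small RNA counts, and replicate pairs differed by 114 to 783 in chi-square per degree of freedom, far above counting noise. The 1 call by row became 0 with total counts only, 0 with limma at either pseudocount, 3 with no filter and 6 with DESeq2. The 1 call by family and arm became 0 with total counts only, with limma at either pseudocount, summed over arms and summed by seed with repeated rows kept, and 6 with DESeq2. The last 2 sums were chosen after seeing the data. Fits without 1 library gave 0 to 0 calls by row and 0 to 0 by family and arm, 0 to 7 arm ratios, 1 to 6 processing genes and 1 to 10 host genes. The 7 arm ratios came only without control replicate 3, and every other fit without 1 library gave 0. Limma on the RNA-seq values gave 2 processing genes and 3 host genes.

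The replicate block gave 1 call by row, 1 by family and arm, 2 arm ratios (miR-144 and miR-2188), 3 processing genes and 4 host genes. Deviations of libraries with the same number correlated at 0.15, 0.0017 and 0.304 in small RNA, so the numbers were not taken to pair the libraries.

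Scaling by total counts alone moved the fold changes by 0.12 on the log2 scale, other scalings of the same features by at most 0.027. The choice of features fitted moved some rows more. Row miR-210-y was at 1.23 in the main fit, at 1.08 with a mean of at least 10 TPM and at 1.09 with known families only. Row miR-210-x was at 0.51, 0.35 and 0.37. Medians near 0 and counts of features above 0 come from the main fit and may depend on that choice. Of 256 alternative fold changes of the 16 features followed, 256 kept their direction. The 16 were the rows of miR-210 and miR-2188 and rows chosen for passing or for large differences without overlap. Most were therefore unlikely to reverse. Some other named rows did change sign over the fits without 1 library, such as miR-30-x (-0.15 to 0.10) and miR-222-y (-0.60 to 0.19). Leaving out 1 library changed the sign of the difference in share of predicted rows (-0.0263 to 0.0151 percentage points), of miR-22 (-0.175 to 0.106) and of the number of rows with a count (-21.7 to 137).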
